A study of Homo sapiens with 2 samples.

Results

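Chromosome 17 carried 11005 of the 370863 distinct LSD2 peaks that the authors called in HepG2 cells. The peaks were chosen by position, as the chromosome 17 intervals (hg19) of the deposited list of LSD2 ChIP against input. Identical lines were counted once. The choice was not blind to the data. Chromosome 17 was chosen with earlier results of these data known, and its division at 26 Mb was selected on counts of peaks along it. The study mapped the contacts of LSD2 with DNA by chromatin immunoprecipitation and sequencing (ChIP-seq) in HepG2, an established human liver tumour line with an abnormal karyotype. The data comprised 1 LSD2 ChIP library, made with a rabbit polyclonal antibody against residues 26 to 822 of human LSD2, and 1 input library, made without antibody. Both came from HepG2 cells in medium with 25 mM glucose and 10% serum, with no genetic change or treatment named.

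LSD2 is the product of the KDM1B gene, a flavin-dependent demethylase that removes methyl groups from lysine residues of histone H3. Unlike its relative LSD1, which is best known at promoters and enhancers, LSD2 is known mainly from the transcribed bodies of active genes. Chromosome 17 is gene-rich and has a short arm at low coordinates and a long arm at high coordinates. MED13, the gene in the densest 100 kb bin, encodes the subunit that links the kinase module of Mediator, with CDK8, cyclin C and MED12, to the core of that transcriptional coactivator.

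The list gives a start and an end for each peak and no height, fold or p per peak, so density, width and spacing were the measurements that could be made. Each group had 1 library, and neither replicate error nor sequencing depth is known here. The division at 26 Mb had been placed where it parts the window counts, so the differences between its sides are given as descriptions without a test.

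As a whole, chromosome 17 had more peaks per Mb, and wider ones, than the other chromosomes pooled. It had 141 peaks per Mb over 78.1 Mb of searched sequence, against 129 peaks per Mb over all other chromosomes, where searched sequence runs from the first to the last peak without peak-free stretches over 500 kb. Peaks covered 3.57% of the searched sequence on chromosome 17 and 3.02% on the other chromosomes. The other chromosomes include X and Y, which had the fewest peaks per Mb (64.0 and 42.7). The other autosomes alone had 134 peaks per Mb and 3.13% covered. The median width was 185 bp (95% binomial interval of the median 182 to 190 bp) on chromosome 17 and 172 bp (172 to 173 bp) elsewhere. Peaks of 400 bp or more made up 12.4% of chromosome 17 peaks (95% Wilson interval 11.8% to 13.0%) and 7.75% of the others (7.66% to 7.84%), and this share was the highest of the 24 chromosomes. Peaks from 200 to below 400 bp made up 34.6% on chromosome 17 and 34.3% elsewhere, while those from 140 to below 170 bp made up 43.2% on chromosome 17 and 47.4% elsewhere. These intervals cover counting only and treat neighbouring peaks as independent. They make no allowance for the choice of chromosome 17 with earlier results of these data known.

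Against the dense chromosomes 2 and 20, chromosome 17 had fewer peaks per Mb and a larger share of peaks of 400 bp or more. Chromosome 17 ranked 6 of 24 by peaks per Mb, below chromosome 2 (177 peaks per Mb) and chromosome 20 (146 peaks per Mb). Its share of peaks of 400 bp or more, 12.4%, stood above the 10.3% of chromosome 2 and the 10.9% of chromosome 20. Its share of peaks of 1000 bp or more did not stand above both. That share was 0.31% on chromosome 17 (34 peaks), 0.34% on chromosome 20 (30 peaks) and 0.14% on chromosome 2 (59 peaks). Gaps under 1 kb between neighbouring peaks made up 20.3% of gaps on chromosome 17, 21.3% on chromosome 2 and 19.96% on chromosome 20. The median gap was 3602 bp on chromosome 17, 3216 bp on chromosome 2 and 3696 bp on chromosome 20. The median width was 185 bp on chromosome 17, 187 bp on chromosome 2 and 179 bp on chromosome 20. The order of the 3 chromosomes by the share of peaks of 400 bp or more was thus not their order by median width.

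Above 26 Mb the peaks were denser than below it. The 8482 peaks with a midpoint above 26 Mb gave 154 peaks per Mb over 55.1 Mb, against 110 peaks per Mb from 2523 peaks over 23.0 Mb below it, a ratio of 1.40. The 55 windows of 1 Mb above 26 Mb held 61 to 253 peaks, with a median of 153 and a mean of 154 ± 47.2 (SD over windows). The 21 windows below held 73 to 150 peaks, with a median of 115 and a mean of 109 ± 23.1. The ranges overlapped. Above 26 Mb, 28 of the 55 windows exceeded the fullest window below it, whereas 13 lay under the median of the windows below. The spread was also wider above 26 Mb, where the emptiest window of the chromosome lay together with the fullest.

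**Figure D1:**
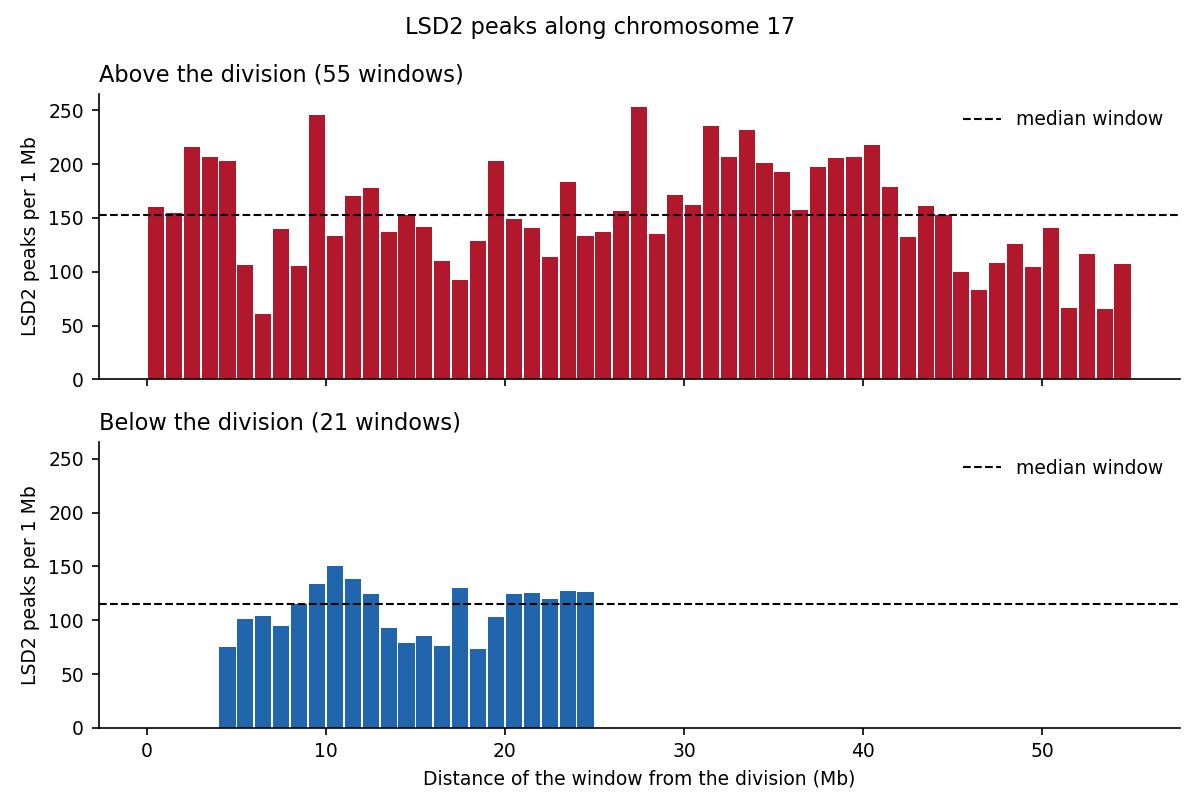
LSD2 peaks in each 1 Mb window of chromosome 17 that was searched over its whole length, above (top) and below (bottom) the division, by distance from the division in Mb, with the median window dashed. Windows above the division reach 253 peaks and windows below it 150, and the empty space nearest the division in the lower panel is a peak-free stretch with its partly searched edges.

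Bins of 100 kb showed the shift at the median and at both quartiles. The 551 bins of 100 kb above 26 Mb held a median of 14 peaks (quartiles 10 and 20), compared with a median of 10 peaks (quartiles 7 and 14) in the 228 bins below. A bin was counted as dense at 24 peaks or more, which is 2 times the median of 12 peaks over all searched bins of the genome, and 7.94% of the 28568 bins of all chromosomes passed. Dense bins were 68 of 596 (11.4%) on chromosome 20 and 444 of 2386 (18.6%) on chromosome 2. On chromosome 17 the number was 92 of 779 bins (11.8%), with 80 bins above 26 Mb (14.5% of that side) and 12 below (5.26%). Bins with at most 6 peaks made up 10.5% above and 22.4% below, against 16.4% over the genome. The share of dense bins was thus over the genome's share above 26 Mb and under it below, and the share of sparse bins stood the other way round.

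Width and spacing differed between the sides in the same sense as density. Spacing is largely another view of density, since more peaks per Mb leave shorter gaps, so it is not a separate result. The median peak above 26 Mb was 194 bp wide (95% binomial interval 189 to 198 bp) and below it 170 bp (167 to 173 bp). Peaks of 400 bp or more were 13.8% of those above (95% Wilson interval 13.1% to 14.6%) and 7.73% of those below (6.75% to 8.84%), so the lower side was close to the 7.75% of the other chromosomes and the upper side stood apart from it. Of the 34 peaks of 1000 bp or more, 32 lay above 26 Mb and 2 below, while 77.1% of all peaks lay above. The shares from 200 to below 400 bp were closer to each other, at 35.0% above (33.9% to 36.0%) and 33.2% below (31.4% to 35.1%). The intervals in this paragraph also cover counting only and treat neighbouring peaks as independent, so they do not test the sides. From one peak to the next, the median gap was 3354 bp above (3231 to 3484 bp) and 4697 bp below (4350 to 5003 bp). Gaps under 1 kb were 21.7% of gaps above and 15.7% below, while gaps over 20 kb were 5.94% above and 11.5% below.

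**Figure D2:**
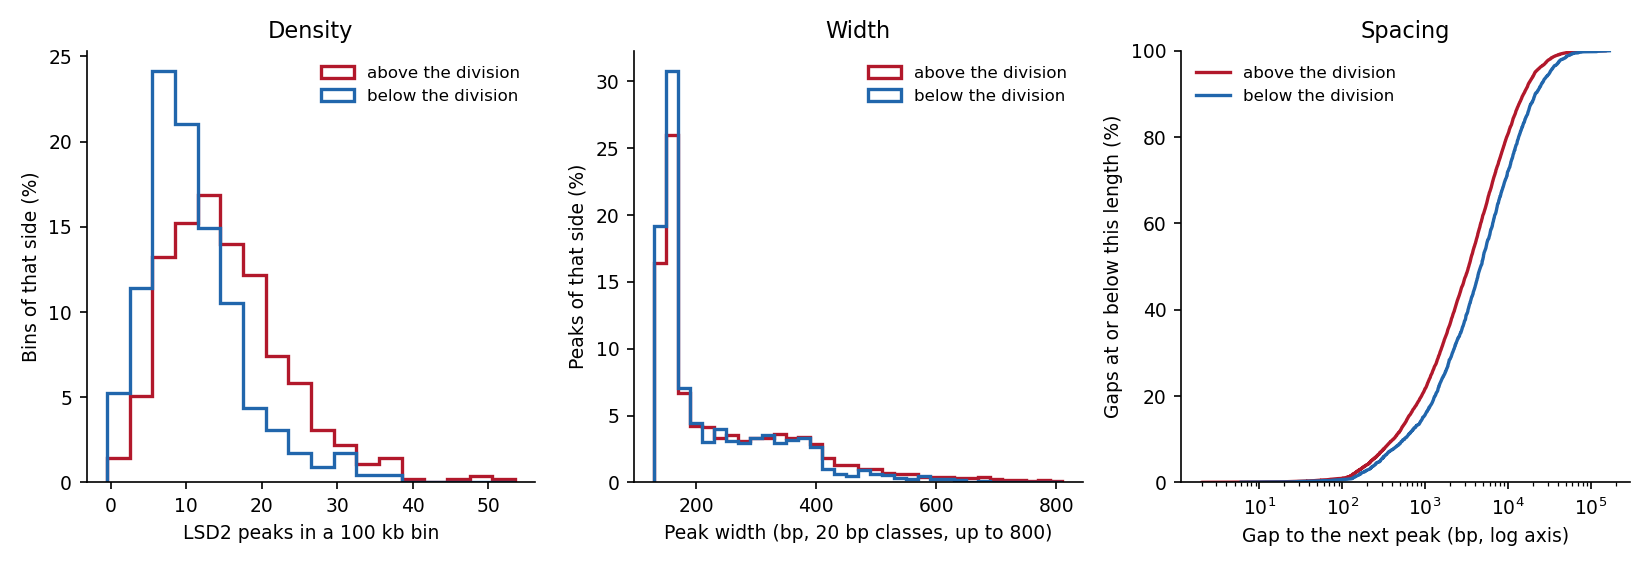
Distributions above (red) and below (blue) the division on chromosome 17: peaks per 100 kb bin as a percentage of bins, peak width as a percentage of peaks in 20 bp classes, and the cumulative percentage of gaps by length on a log axis. Medians above and below are 14 and 10 peaks per bin, 194 and 170 bp, and 3354 and 4697 bp.

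At 26 Mb itself no step was seen. The first peak above the division, from 26001905 to 26002055, was 151 bp wide, and the last below it, from 25963855 to 25963998, was 144 bp wide, with 37906 bp between them. The 500 kb above the division held 80 peaks and the 500 kb below it held 77. The longest peak-free stretch of the chromosome, 3025 kb from 22247540 to 25272732, lay a little lower. Between its upper end and 26 Mb there were 99 peaks, at 136 peaks per Mb and a median width of 201 bp, values nearer to the upper side than to the lower.

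Density above 26 Mb was not even. In blocks of 5 Mb it was 188 peaks per Mb from 26 to 31 Mb, 132 to 154 peaks per Mb in the 4 blocks from 31 to 51 Mb, and 170 peaks per Mb from 51 to 56 Mb. It was highest from 56 to 61 Mb, at 207 peaks per Mb, with 192 from 61 to 66 Mb and 168.6 from 66 to 71 Mb. From 71 Mb on it was 99 to 104 peaks per Mb in both remaining full blocks, which is within the 93.4 to 120 peaks per Mb of the blocks below 26 Mb. Density was thus lower in all blocks below 26 Mb and again from 71 Mb on than in the blocks between 26 and 71 Mb. Among the latter, 31 to 36 Mb, at 132 peaks per Mb, was close to the 129.6 of the whole list.

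Divided at 71 Mb, a boundary chosen after the windows had been seen, the upper side fell into 2 unlike pieces. From 26 to 71 Mb there were 166 peaks per Mb, 1.51 times the density below 26 Mb, and 77 of 450 bins (17.1%) were dense. From 71 Mb to the last peak there were 101 peaks per Mb, 0.92 times the density below 26 Mb, and 3 of 101 bins (2.97%) were dense. Of the peaks from 71 Mb on, 12.6% were 400 bp or wider, against 14.0% from 26 to 71 Mb and 7.73% below 26 Mb. The median widths were 177 bp from 71 Mb, 197 bp from 26 to 71 Mb and 170 bp below 26 Mb.

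Among single windows above 26 Mb, the fullest was 53 to 54 Mb with 253 peaks, followed by 35 to 36 Mb with 246, 57 to 58 Mb with 235 and 59 to 60 Mb with 232. The emptiest was 32 to 33 Mb with 61 peaks. Below 26 Mb the fullest window was 15 to 16 Mb with 150 peaks and the emptiest was 7 to 8 Mb with 73. Unmappable sequence was not set apart from sequence without LSD2, so a low count does not show that LSD2 was absent.

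Other chromosomes changed less across their longest peak-free stretch, a division taken from the same peak list without window counts. On chromosome 17 this stretch lay close to the division used above, with 99 peaks between them. The ratio for chromosome 17 therefore largely repeats the contrast already given. Chromosome 17 was also chosen with earlier results of these data known, so its rank among the chromosomes is a description and not an independent test. On chromosome 17 the sequence after this stretch had 154 peaks per Mb and the sequence before it 109, a ratio of 1.41. In the 18 other chromosomes with at least 10 Mb searched on both sides, the ratio ran from 0.84 on chromosome 20 to 1.30 on chromosome 16, with a median of 1.03, and 8 of the 18 were below 1. Chromosome 17 had the furthest ratio from 1 of these 19 chromosomes. Its ratio of median widths, 1.15, was outside the 0.97 to 1.04 of the other 18. Chromosome 16, next by density with 145 peaks per Mb after its stretch and 111 before it, had a median width of 177 bp on both sides. Chromosome 13 enters this comparison with a stretch of only 0.158 Mb inside its single searched arm.

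**Figure D3:**
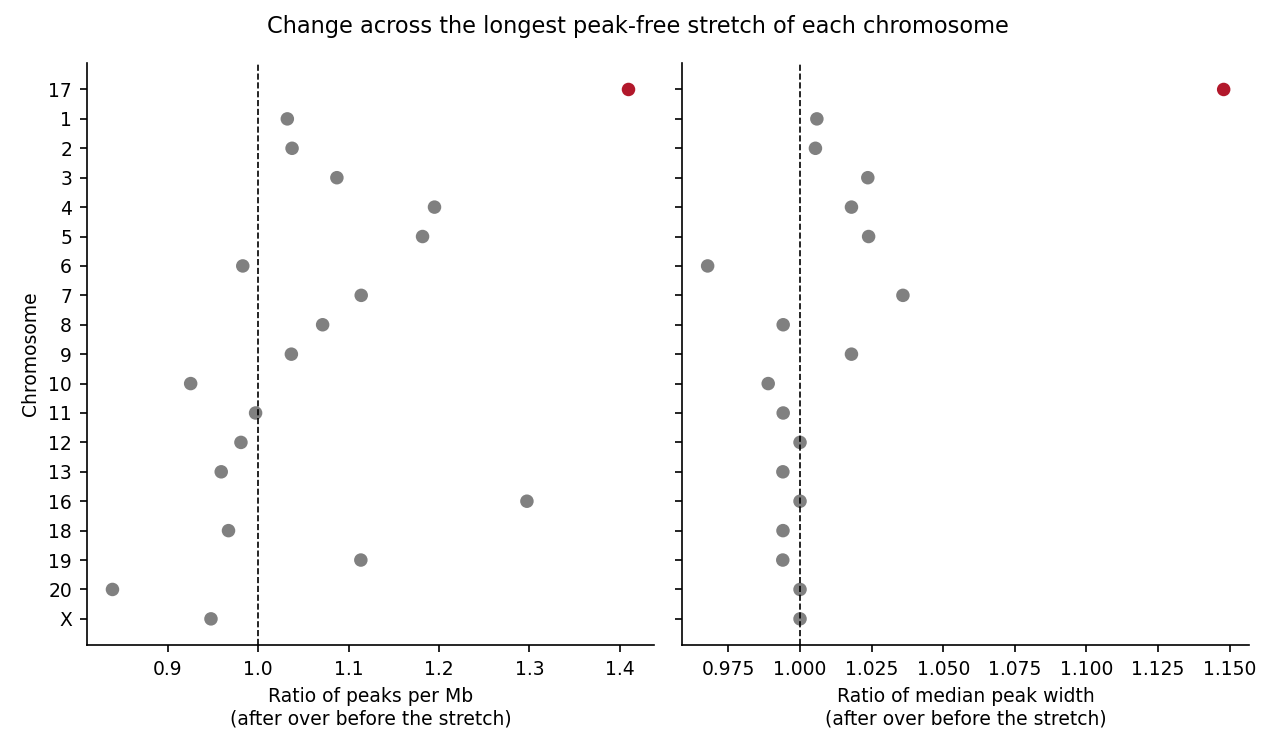
Ratio of peak density (left) and of median peak width (right), after over before the longest peak-free stretch, for chromosome 17 (red, top) and the 18 other chromosomes with at least 10 Mb searched on both sides (grey). The dashed line marks a ratio of 1, and chromosome 17 is furthest to the right in both panels, at 1.41 and 1.15.

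The 10 densest bins of 100 kb held 425 peaks, 3.86% of those on the chromosome, and 9 of the 10 lay above 26 Mb, as did 70.7% of all bins of the chromosome. They held 37 to 52 peaks each, against the median of 13 over chromosome 17, and an eleventh bin tied the last at 37. No 2 of them touched, although of the 92 dense bins of the chromosome 49 had a dense neighbour. All 10 had medians of width between 170.5 and 413.5 bp, and 9 of the 10 were above the chromosome's 185 bp. Genes are named here for MED13 alone, because the gene table used is on another build.

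The densest bin, from 60000001 to 60100000, held 52 peaks and shared rank 10 among the 28568 bins of the genome. The densest bin of chromosome 20 also held 52 peaks, and that of chromosome 2 held 74. The median peak in the chromosome 17 bin was 302.5 bp wide, 12 of the 52 reached 400 bp, and peaks covered 16.9% of the bin. Their median gap was 1049 bp, the shortest 55 bp and the longest 6876 bp. MED13 held 45 of these 52 peaks, and the neighbouring bins held 26 above and 32 below. The dense stretch therefore ran past both edges of the bin.

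The bin from 37600001 to 37700000 held 50 peaks with a median width of 325.5 bp and a median gap of 832 bp. It was bounded by 7 peaks in the bin above and 24 in the bin below, so its density fell off more sharply toward higher coordinates. A run of 19 successive peaks, each within 2 kb of the next, lay in it from 37669502 to 37687957. In that run peaks had a median width of 340 bp and covered 36.5% of 18.5 kb.

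The bin from 57700001 to 57800000 held 49 peaks of 308 bp median width, of which 17 reached 400 bp. Its gaps included one of 2 bp, where neighbouring intervals nearly met, and the bin above it held a further 32 peaks. The list repeated 19 of these 49 intervals (38.8%) on more than one line.

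The bin from 61800001 to 61900000 had fewer peaks, 46, and the widest. Their median was 413.5 bp, 23 of the 46 reached 400 bp, and they covered 21.6% of the bin, the largest covered share among the 10. A run of 18 peaks from 61866919 to 61889164 had a median width of 534.5 bp and covered 48.6% of 22.2 kb. It contained the second-widest peak of chromosome 17, 1612 bp from 61874201 to 61875812. The bin above it held 8 peaks with a median width of 163 bp, and the bin below held 19 with a median of 268 bp. The high number of peaks was therefore local, while peaks in the bin below were still wider than the chromosome's median of 185 bp.

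The bin from 53400001 to 53500000 had a narrow median but no lack of wide peaks. Its 40 peaks had a median width of 170.5 bp, the lowest median of the 10 and close to the median below 26 Mb. None of them was listed more than once. Of the 40 peaks, 8 reached 400 bp, and the widest was 1264 bp, from 53485063 to 53486326. The remaining 5 bins held 37 or 38 peaks each with median widths of 211.5 to 297 bp. In each of these 5 bins, 6 to 11 peaks reached 400 bp. They began at 29500001, 33900001, 53000001, 15900001 and 35500001. The one that began at 15900001 was the only one of the 10 below 26 Mb, with 37 peaks of 297 bp median width and 32 more in the bin above it.

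**Figure D4:**
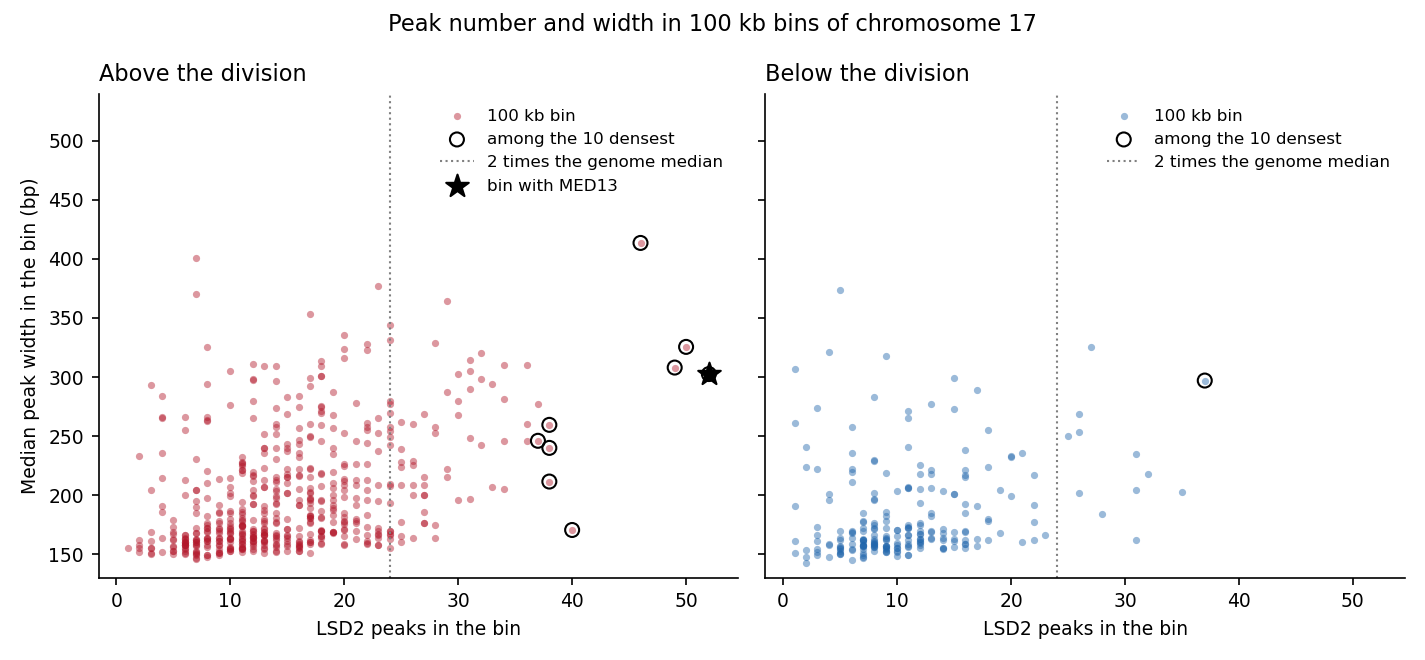
Each point is a 100 kb bin of chromosome 17 above (left) or below (right) the division, by its number of LSD2 peaks and their median width in bp. Circles mark the 10 densest bins, the star the bin with most of MED13 (52 peaks, 302.5 bp), and the dotted line 24 peaks, 2 times the genome median.

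Bins with more peaks had wider peaks on both sides. Spearman's rho between number and median width was 0.44 over 549 bins above 26 Mb and 0.32 over 226 bins below that held a peak, and 0.29 over 27569 bins of the other chromosomes. Bins share their library and depth, so these are descriptions. In dense bins the median width was 243 bp above 26 Mb (80 bins) and 229 bp below it (12 bins). In bins with at most 6 peaks it was 159 bp above and 158 bp below. In the bins between, it was 181 bp above and 167 bp below. The sides differed by 24 bp in overall median, by 1 bp among their sparsest bins and by 14 bp in each of the other classes.

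MED13 lies on chromosome 17 from 60019966 to 60142643 (hg19) and held 58 peaks in 122.7 kb. The gene was singled out for its peak density, so its counts are a description. It is transcribed toward lower coordinates, so its upper end is its 5′ end. In the protein-coding gene order of RefSeq (GRCh38.p14, used for order only), INTS2 and BRIP1 neighbour it on the lower side, and EFCAB3 and METTL2A on the upper side. INTS2 encodes a subunit of the Integrator complex, and BRIP1 a helicase that works with BRCA1 in DNA repair. Flanks of the same length held 39 peaks on the lower side and 20 on the upper side, so MED13 had 1.49 times the lower and 2.90 times the upper count.

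Peaks in MED13 were also wider than those on its upper side. Their median width was 318.5 bp, against 292 bp in the lower flank and 194 bp in the upper flank. In MED13 16 of 58 peaks reached 400 bp, compared with 11 of 39 in the lower flank and 0 of 20 in the upper flank. Peaks covered 15.7% of MED13, 10.9% of the lower flank and 3.47% of the upper flank. The dense and wide signal was therefore shared by MED13 and the sequence beyond its 3′ end, while the flank upstream of its 5′ end, at 16.3 peaks per 100 kb and 194 bp, was closer to the chromosome's medians of 13 peaks and 185 bp.

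Within MED13 the peaks thinned from the 3′ end to the 5′ end. In 6 equal parts of 20.4 kb, from the 3′ end upward, there were 16, 14, 9, 8, 7 and 4 peaks. Width did not fall steadily, with median widths in these parts of 218.5, 334.5, 363, 167.5, 407 and 188 bp. The lower part of the gene up to its midpoint held 39 peaks with a median width of 333 bp and a median gap of 784.5 bp. The upper part held 19 peaks with a median width of 218 bp and a median gap of 1628.5 bp. Peaks covered 22% of the lower part and 9.39% of the upper part. The first peak began 526 bp inside the 3′ end, at 60020492, and the last ended at 60138681, which is 3962 bp short of the 5′ end.

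Of the 6 widest MED13 peaks, 4 lay between 60044798 and 60065916. The widest, 833 bp from 60044798 to 60045630, lay in the second part from the 3′ end. The next was 692 bp from 60087228 to 60087919, in the fourth part, followed by 681 bp from 60059063, 678 bp from 60065239 and 619 bp from 60062014. A peak of 612 bp from 60122256 to 60122867 stood nearly alone near the 5′ end, with 11.9 kb free of peaks above it. The longest peak-free stretch reached by the gene, 21.1 kb from 60138682 to 60159748, contained its 5′ end and the sequence upstream. The list thus shows no called peak at the MED13 transcription start, and with unknown depth this does not show that LSD2 was absent there.

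**Figure D5:**
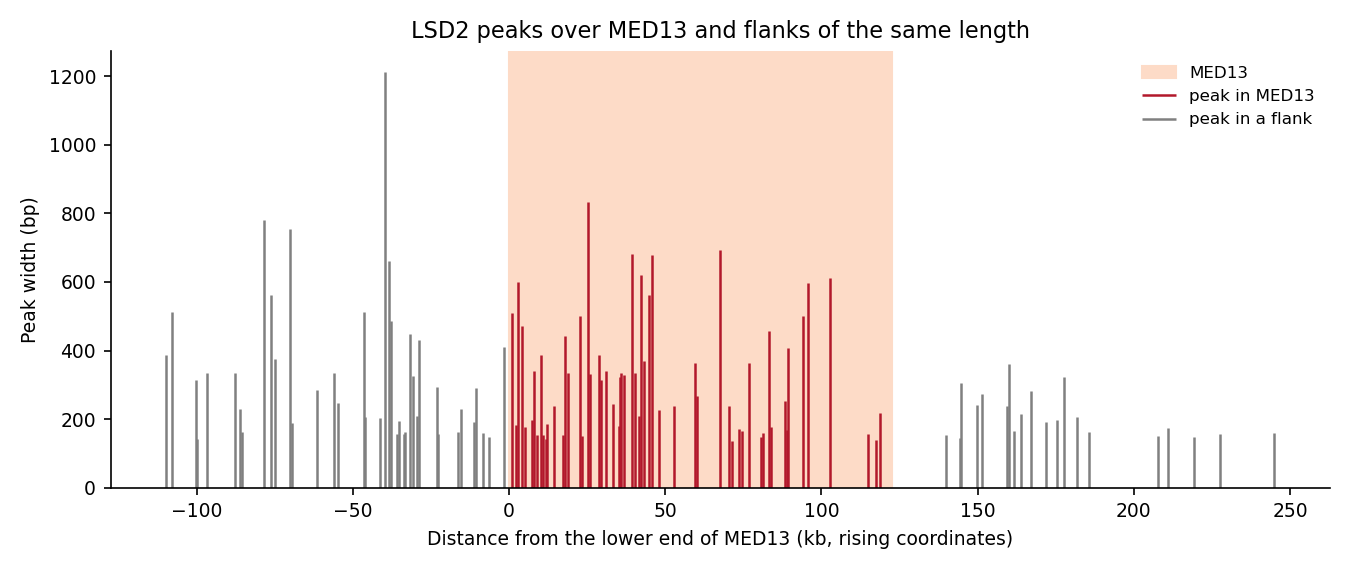
LSD2 peaks over MED13 (shaded) and flanks of the same length, by distance in kb of the peak midpoint from the lower (3′) end of the gene, with line height giving peak width in bp. The 58 peaks in the gene thin out toward its upper (5′) end, and the first 17105 bp beyond that end hold no peak.

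A run of 16 close peaks, from 45745150 to 45761703, had a median width of 453.5 bp and covered 47.8% of 16.6 kb. With those at 37669502 and 61866919 it was one of 3 such runs on chromosome 17, all above 26 Mb, where 77.1% of the chromosome's peaks lay, of 46 in the whole list. The widest peak of the chromosome was 2455 bp, from 30689387 to 30691841, and peaks of 1335 bp from 38554462 and 1308 bp from 45756125 completed the 5 widest above 26 Mb. The 5 widest below it were 831 to 1234 bp, led by one from 8124560 to 8125793. The second of these, 1162 bp from 22244507, lay 1.87 kb from the longest peak-free stretch. The next peak-free stretches by length were much shorter, at 167 kb from 18923932 and 149 kb from 34473803. Of the 10 stretches over 100 kb, 3 lay above 26 Mb and 7 below, with the longest among the latter. The searched sequence was 55.1 Mb above and 23.0 Mb below.

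Repeated lines, which the choice of peaks did not use, were more frequent on chromosome 17 than elsewhere. The deposited list named 1931 of the 11005 chromosome 17 intervals on more than one line, or 17.5% (95% Wilson interval 16.8% to 18.3%), against 9.92% (9.82% to 10.0%) over the other chromosomes. Only chromosome 19, with 24.8%, had a higher share. Most repeated intervals were listed on 2 lines (1604 intervals), and 5 were listed on 6. The share was 16.98% above 26 Mb (16.2% to 17.8%) and 19.5% below (18.0% to 21.1%). These Wilson bounds treat the intervals as independent, which repeated ones were not. What a repeated line stands for is not stated in the file, and repeats were not read as strength.

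Repeated intervals stood together. After a repeated interval the next one was repeated in 68.2% of 1931 cases, and after an interval listed once in 6.77% of 9073 cases. The longest unbroken series of intervals listed once had 533 members and ran 3684 kb from 49344965 to 53028813, followed by 276 members over 1871 kb from 68149227. The longest series of repeated ones had 36 members over 219 kb from 15340036. In windows of 1 Mb the repeated share ran from 0% in 4 windows above 26 Mb to 50% from 43 to 44 Mb. Median widths were 185.5 bp for repeated and 195 bp for single intervals above 26 Mb, and 168 bp for repeated and 170 bp for single intervals below it. Dense blocks could have few or many repeats, since 51 to 56 Mb, with 170 peaks per Mb, had 3.64% repeated intervals and 26 to 31 Mb, with 188 peaks per Mb, had 26.1%.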

How the data were processed

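BWA and the hg19 build are named in the submitters' processing notes. Reads were trimmed, duplicates were removed and MACS was run on LSD2 with input as control, per the file headers. MACS settings, per the file headers, included read and fragment lengths of 120 bp, a genome of 2700 Mb, a p-value threshold of 1e-05, local bias detection and an enrichment factor of 32. No tool version is given in the sources used here. The authors deposited only peak starts and ends, in bases. A peak threshold of this kind can be passed more readily where more reads fall, and neither depth nor the amount of DNA from a region was measured, so their part in number and width was not tested. ChIP and input reads carry different run dates in the header, so run and library cannot be told apart.

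Starts were read as counting from 0 and are printed counting from 1. Peaks were assigned to bins and sides by midpoint, and only bins searched over their whole length were used. Gaps over 500 kb were left out. Analyses used Python 3.11.15, pandas 2.3.3 and scipy 1.17.1 and were tested on simulated data. The named regions were MED13, the 10 densest bins, the 5 widest peaks on each side, runs of at least 15 peaks, the peaks next to 26 Mb and the longest peak-free stretches. Lists of chromosome 17 genes planned for an hg19 annotation were not analysed here. The members and lists were chosen with earlier results of these data known. No hg19 genome was used, so no sequence is printed.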

Additional observations from a re-analysis of the deposited data

How the results depend on the processing

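Of 36 alternative values, 27 stayed within the counting interval of the reported value, or within 1.5 times a reported count, 9 moved further, and 0 changed direction. Counting every line, merging peaks up to 100 bp apart, dividing at the middle of the longest peak-free stretch, leaving out the 10 densest bins, leaving out 2 Mb at each edge and, for density, leaving out peak-free stretches over 100 kb kept the ratios of density (1.36 to 1.41), width (1.12 to 1.15) and gap (0.71 to 0.74), above over below 26 Mb, close to the reported 1.40, 1.14 and 0.71. Restricting to intervals at least as wide as the genome median of 173 bp raised the density ratio to 1.63 and, across the longest peak-free stretch, to 1.66, while the width ratio was 1.06. It gave 76.7 in place of 141 peaks per Mb and 238 dense bins (30.6%, at a threshold of 10 peaks and a genome share of 20.7%) in place of 92, as a set with fewer peaks. Restricting to the widest 10% of intervals, from 387 bp, gave ratios of 2.29 for density, 1.05 for width and 0.46 for gap. Both width ratios are narrowed by the cut on width itself, and the cause of the other shifts was not tested. In 1 Mb bins rho between number and width was 0.67 in place of 0.44. No paired analysis was possible because ChIP and input are 1 library each. Unknown depth limits every count, since regions without LSD2 and regions with too few reads look alike in the list.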
